A study of Mus musculus with 12 samples.

Results

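The MHC class II presentation genes were followed in CD11b+ cells sorted from the hippocampus of mice whose forebrain had been irradiated. The 8 genes, chosen by name, encode the class II chains (H2-Aa, H2-Ab1, H2-Ea and H2-Eb1), the invariant chain (Cd74), the peptide editor H2-DM (H2-DMa and H2-DMb1) and the class II transactivator (Ciita). The values used here name 18193 genes through a probe set of their own, 7 of the 8 among them. Where a gene had several probe sets, the one with the highest mean signal stood for it on the 12 arrays, and the others served as checks. Of the 8 genes, 6 passed the filter on dim probe sets, which asked for a log2 value above 5 on at least 3 arrays. All 6 were above 5 on all 12 arrays, with a lowest value of 5.33 for Cd74, so none entered the tests through 1 high group alone. Ciita did not pass, and H2-DMb1 shares both of its probe sets with H2-DMb2.

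The mice were females of the strains C57BL/6 and Balb/c. At 6.5 weeks of age they received either sham treatment or a single 10 Gy dose of X-rays to a 1 cm circle over the forebrain, and were analysed 1 month later at 10.5 weeks. The 4 groups were sham C57BL/6, irradiated C57BL/6, sham Balb/c and irradiated Balb/c, with 3 mice and 3 arrays in each and 1 mouse per array. The labels name no altered allele or transgene in either strain. RNA from 5000 to 10000 sorted cells per mouse, with an RNA integrity number above 7.4, went through 2 rounds of linear amplification before hybridisation to Affymetrix arrays. CD11b marks microglia, but also monocytes, other macrophages and some dendritic cells. The microglial markers P2ry12, Tmem119 and Cx3cr1 lay between 13.76 and 14.32 on every array, on a log2 scale that ran from 2.23 to 16.2 with a median of 2.44.

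Class II molecules display peptides from the endosomal route to CD4+ T cells. An alpha and a beta chain (H2-Aa with H2-Ab1 in the I-A molecule, H2-Ea with H2-Eb1 in the I-E molecule) assemble in the endoplasmic reticulum on the invariant chain, which plugs the groove and guides the complex to the endosome. There cathepsins trim the invariant chain, H2-DM exchanges its last fragment for a peptide, and H2-O holds H2-DM back. Transcription depends on CIITA, a coactivator induced by interferon gamma, which binds no DNA itself but docks on RFX, CREB and NF-Y proteins at a shared promoter module. Resting microglia carry little class II, while macrophages at the brain's borders include cells that carry much. Both strains differ at this locus: C57BL/6 has the b haplotype, in which a deletion in the promoter of H2-Ea leaves the mice without I-E, and Balb/c has the d haplotype, which makes both molecules.

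The promoter module can be read in the reference sequence of the genes concerned. The 250 bases before the gene start were searched on the strand of the gene for the X box core GNAAC followed, 10 to 35 bases further on, by the Y box core TGATTGG, with the letters chosen after these windows had been seen. The windows come from RefSeq on build GRCm38.p6, whose sequence is that of C57BL/6. Of 8 class II genes, with 9 windows here, 6 held the pair, a count that the choice of letters favours and that is no test. Among 32851 windows of all genes, searched on both strands, 0.591% held it. TGATTGG alone was in 7.23% of those windows and GNAAC alone in 79.6%, and the cores do not overlap each other in the pair. Below are H2-Aa and H2-Eb1, whose signals were higher after irradiation, and H2-Ob, whose signal was lower on its own probe set, with both cores in capitals. The windows are chr17:34287824-34288073 on the minus strand for H2-Aa, chr17:34305617-34305866 on the plus strand for H2-Eb1 and chr17:34238655-34238904 on the plus strand for H2-Ob.
H2-Aa: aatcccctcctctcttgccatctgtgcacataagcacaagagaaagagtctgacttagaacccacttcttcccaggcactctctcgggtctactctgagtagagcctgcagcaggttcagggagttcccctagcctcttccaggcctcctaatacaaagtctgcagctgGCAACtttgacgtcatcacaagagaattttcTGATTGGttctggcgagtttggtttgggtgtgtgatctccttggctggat
H2-Eb1: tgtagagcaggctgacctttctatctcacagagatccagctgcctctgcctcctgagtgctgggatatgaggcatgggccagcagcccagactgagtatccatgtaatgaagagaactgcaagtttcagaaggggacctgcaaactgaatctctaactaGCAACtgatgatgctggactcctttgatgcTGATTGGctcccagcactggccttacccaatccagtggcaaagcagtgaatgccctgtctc
H2-Ob: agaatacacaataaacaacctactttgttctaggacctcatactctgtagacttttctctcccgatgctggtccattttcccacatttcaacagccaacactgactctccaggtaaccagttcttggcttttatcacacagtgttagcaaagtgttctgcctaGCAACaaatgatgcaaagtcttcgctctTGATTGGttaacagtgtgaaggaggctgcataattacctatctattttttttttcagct
The X and Y cores are 26 bases apart in H2-Aa, 25 in H2-Eb1 and 23 in H2-Ob, and the Y core starts 50, 61 and 59 bases before the gene start. H2-DMb1 and H2-Oa hold the pair as well, each with 26 bases between the cores, and so does H2-Eb2, with 25, whose probe set stayed at 2.23 on all arrays. Neither of the 2 windows of H2-DMa holds it, and that of H2-DMb2 holds TGATTGG but not the pair. These matches describe letters in a window and not bound factors.

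Groups were compared with limma, which fits 1 mean per group over all 9120 genes that passed the filter. The adjusted p follows Benjamini and Hochberg over those 9120 genes, and a gene was called where it was under 0.05. Differences are on the log2 scale, so 1 unit is a doubling of signal, and are given with their standard error. Arrays of sham and irradiated mice also differed in a measure of the RNA. The control probe sets for 18S ribosomal RNA read 11.93 to 12.32 on the sham arrays and 10.49 to 11.77 on the irradiated arrays. The signal of Actb and Gapdh probe sets at the 3' end exceeded that at the 5' end by 3.50 to 3.81 on 10 arrays, by 4.82 on Balb/c irradiated replicate 2 and by 4.21 on Balb/c irradiated replicate 3. The part of the 18S signal in the results below was not tested, and the 3' minus 5' difference was entered as a covariate.

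Class II genes rose after irradiation on the average of both strains, with fewer calls within each. Averaged over the strains, 5 of the 6 tested members rose, all but H2-Ea, where 7.72% of all tested genes were called higher and 15.9% were called in either direction. The members' median difference was 1.98, against -0.05 over all genes. Within C57BL/6, 3 of 6 were called, all higher (H2-Aa, H2-Ab1 and Cd74), where 2.21% of all genes were called higher and 3.67% in all. Within Balb/c, 1 of 6 was called, H2-DMa, also higher, where 3.26% of genes were called higher and 6.15% in all. Median differences were 2.43 in C57BL/6 and 1.44 in Balb/c, against -0.04 over all genes in each. The irradiated arrays lay wholly above the sham arrays for 5 members in C57BL/6, all but H2-Ea, and for H2-Aa, Cd74 and H2-DMa in Balb/c. Arrays separated this way, upward, for 11.4% of all genes in C57BL/6 and 12.8% in Balb/c. In a sorted population the same difference in signal can come from more cells of a type with class II or from more RNA per cell, and these cannot be told apart here.

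**Figure D1:**
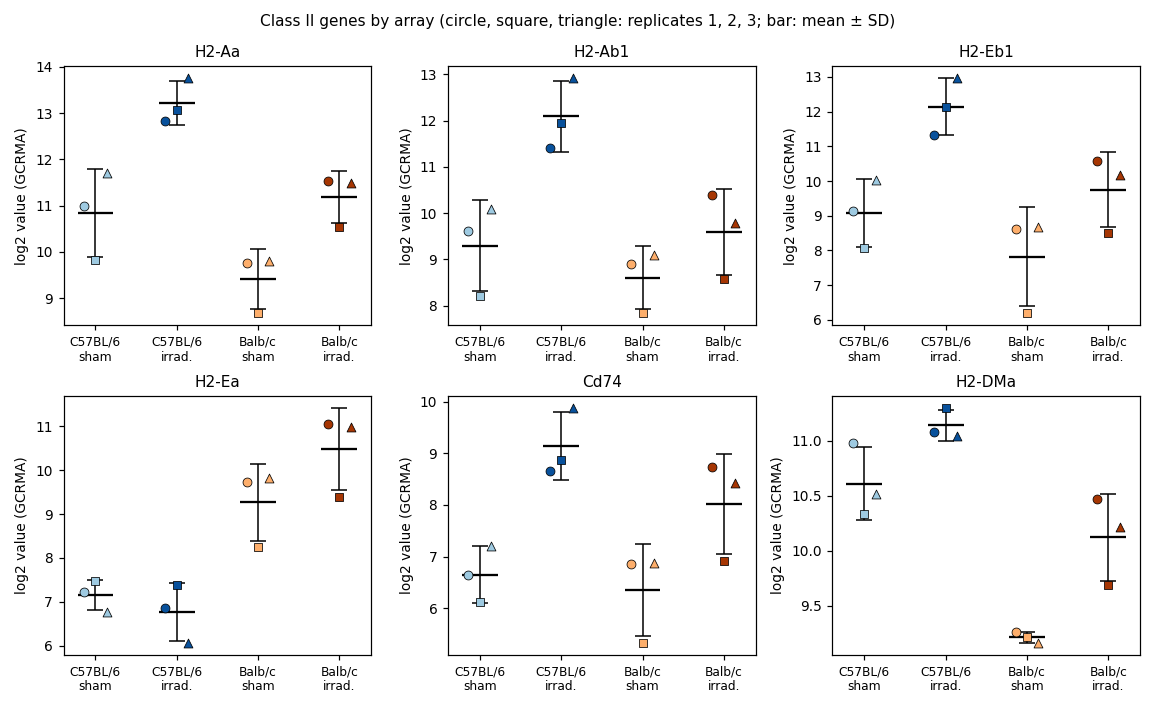
Log2 signal of each of the 6 tested members on each of the 12 arrays, by group, with bars at the group mean and error bars of 1 SD (3 mice per group). The 3 irradiated C57BL/6 arrays sit above all sham C57BL/6 arrays for every member but H2-Ea, which reads higher in Balb/c than in C57BL/6.

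The calls within a strain rested on single arrays, and the average over strains did not. In C57BL/6 the count of called members went from 3 to 0 without C57BL/6 sham replicate 1, sham replicate 2 or irradiated replicate 3, and to 1 without C57BL/6 irradiated replicate 2 or Balb/c sham replicate 1. The differences themselves stayed about as large: without C57BL/6 sham replicate 1 H2-Aa was at 2.45, H2-Ab1 at 2.95 and Cd74 at 2.47. The count over all genes in C57BL/6 also fell, from 335 to as few as 113 on leaving out 1 array. In Balb/c the count of members went from 1 to 0 without any of the 3 sham arrays or without irradiated replicates 1 or 3, and to 2 without C57BL/6 sham replicates 2 or 3. The average effect kept a count of 5 without each of the 12 arrays in turn. The highest adjusted p among these was 0.0398, for H2-Ab1. In an earlier analysis 2 arrays stood apart from their groups, replicate 3 of irradiated C57BL/6 and replicate 2 of irradiated Balb/c. Without both, 0 members were called in C57BL/6, 2 in Balb/c and 5 on average. With the 3' minus 5' difference as a covariate the counts were 3, 1 and 5.

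H2-Aa, the alpha chain of I-A, rose in C57BL/6 and on average. It read 10.99, 9.82 and 11.71 in sham C57BL/6 replicates 1 to 3 and 12.84, 13.06 and 13.75 in the irradiated ones. In Balb/c it read 9.76, 8.67 and 9.80 in sham and 11.52, 10.55 and 11.49 in irradiated mice. Irradiated arrays were above sham arrays without overlap in both strains. The difference was 2.38 ± 0.49 in C57BL/6, or 5.19-fold (adjusted p = 0.0275), and 1.78 ± 0.49 in Balb/c (95% interval 0.70 to 2.85), which did not pass the threshold (adjusted p = 0.0564). Over both strains H2-Aa rose by 2.08 ± 0.34, or 4.22-fold (adjusted p = 0.00354). By level, irradiated C57BL/6 stood highest, irradiated Balb/c and sham C57BL/6 overlapped in the middle, and sham Balb/c was lowest.

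H2-Ab1, the beta chain that pairs with H2-Aa, showed the same order in C57BL/6 and a smaller difference in Balb/c. Sham C57BL/6 mice read 9.61, 8.20 and 10.08 and irradiated ones 11.41, 11.94 and 12.92. Sham Balb/c mice read 8.90, 7.83 and 9.09 and irradiated ones 10.40, 8.57 and 9.79. The groups did not overlap in C57BL/6, while in Balb/c irradiated replicate 2 fell among the sham values. The gene rose by 2.79 ± 0.60 in C57BL/6, or 6.93-fold (adjusted p = 0.0329). The difference in Balb/c was 0.98 ± 0.60 (95% interval -0.35 to 2.31, adjusted p = 0.371). On average it rose by 1.89 ± 0.43, or 3.70-fold (adjusted p = 0.0153).

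H2-Eb1, the beta chain of I-E, had the widest spread. It read 9.15, 8.08 and 10.03 in sham and 11.34, 12.13 and 12.97 in irradiated C57BL/6 mice. It read 8.61, 6.18 and 8.68 in sham and 10.56, 8.52 and 10.17 in irradiated Balb/c mice. Arrays separated in C57BL/6, and in Balb/c the lowest irradiated value lay below 2 sham values. Neither strain alone passed the threshold, with 3.06 ± 0.78 in C57BL/6 (adjusted p = 0.059) and 1.93 ± 0.78 in Balb/c (adjusted p = 0.17). Averaged, H2-Eb1 rose by 2.49 ± 0.55, or 5.62-fold (adjusted p = 0.0138), the largest average difference of the 6 members.

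H2-Ea, the alpha chain of I-E, was the member whose average difference did not pass. Sham C57BL/6 mice read 7.22, 7.47 and 6.78 and irradiated ones 6.85, 7.38 and 6.07, so the groups overlapped. Sham Balb/c mice read 9.72, 8.26 and 9.82 and irradiated ones 11.06, 9.40 and 10.99, also with overlap through replicate 2. The difference was -0.39 ± 0.53 in C57BL/6 (adjusted p = 0.699), 1.21 ± 0.53 in Balb/c (adjusted p = 0.203) and 0.41 ± 0.37 on average (adjusted p = 0.484). A second H2-Ea probe set, 1422892_s_at, drew the strains further apart. It read 2.23 to 2.87 on all 6 C57BL/6 arrays, near the bottom of the scale. In Balb/c it read 11.63, 9.68 and 11.78 in sham and 13.15, 11.80 and 12.75 in irradiated mice, a separation of 1.54 ± 0.50 (adjusted p = 0.112 over all probe sets). The third, 1426202_at, stayed at 2.23 on all arrays. Whether the signal of the brightest H2-Ea probe set in C57BL/6 comes from H2-Ea transcript was not tested. The average difference takes in those C57BL/6 arrays, so it does not describe Balb/c and does not show that H2-Ea failed to respond.

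Cd74, the invariant chain, followed the I-A genes. It read 6.63, 6.12 and 7.21 in sham and 8.65, 8.87 and 9.89 in irradiated C57BL/6 mice. It read 6.86, 5.33 and 6.89 in sham and 8.73, 6.92 and 8.42 in irradiated Balb/c mice. Irradiated arrays were above sham arrays in both strains, in Balb/c by only the gap between 6.89 and 6.92. Cd74 rose by 2.48 ± 0.56 in C57BL/6, or 5.59-fold (adjusted p = 0.0393), and by 2.07 ± 0.40 on average, or 4.21-fold (adjusted p = 0.0071). In Balb/c the difference was 1.67 ± 0.56 (adjusted p = 0.105).

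H2-DMa, the alpha chain of the peptide editor, moved less but with a small spread. Sham C57BL/6 mice read 10.98, 10.34 and 10.51 and irradiated ones 11.08, 11.30 and 11.04. Sham Balb/c mice read 9.26, 9.22 and 9.16 and irradiated ones 10.47, 9.69 and 10.21. Both strains separated without overlap. H2-DMa rose by 0.91 ± 0.21 in Balb/c, or 1.88-fold (adjusted p = 0.0285), and by 0.72 ± 0.15 on average, or 1.65-fold (adjusted p = 0.0093). In C57BL/6 the difference was 0.53 ± 0.21 (adjusted p = 0.17). Its second probe set, 1459872_x_at, gave 0.61 ± 0.21 and 0.80 ± 0.21.

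H2-DMb1 encodes the beta chain that pairs with H2-DMa, and was seen only through 2 probe sets that H2-DMb2 shares, so no value belongs to it alone. On the shared probe set 1418638_at, sham C57BL/6 mice read 7.998, 7.76 and 7.70 and irradiated ones 8.11, 8.26 and 8.72. Balb/c mice read 5.06, 4.69 and 5.09 in sham and 6.17, 4.94 and 6.35 in irradiated groups. The irradiated groups were higher by 0.54 ± 0.32 in C57BL/6 (adjusted p = 0.366) and 0.88 ± 0.32 in Balb/c (adjusted p = 0.155). The Balb/c sham values lie near the filter of 5. The brighter shared probe set, 1449580_s_at, differed by 0.60 ± 0.60 in C57BL/6 (adjusted p = 0.617) and 0.26 ± 0.60 in Balb/c (adjusted p = 0.854). On it Balb/c irradiated replicate 2 read 4.62, below all Balb/c sham arrays. Ciita, the coactivator on which the other members depend, read 2.25 to 2.27 on all 12 arrays with its brightest probe set and was not tested. A value at the bottom of the scale shows no change in either direction, so these arrays carry no information on how Ciita moved.

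**Figure D2:**
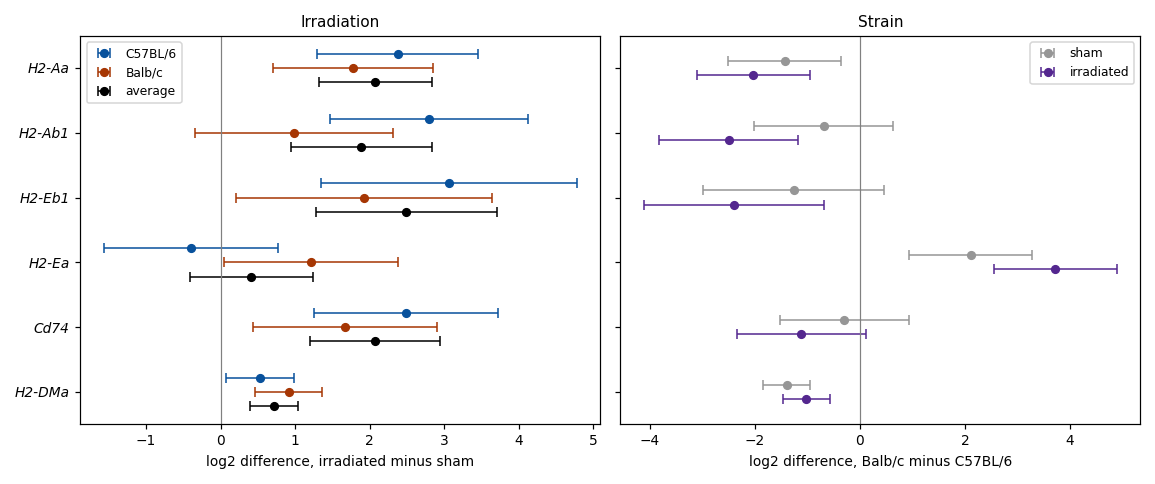
Log2 difference between irradiated and sham mice for the 6 tested members in each strain and on average (left), and between Balb/c and C57BL/6 in sham and irradiated mice (right), with 95% intervals from the limma fit. The intervals of H2-Aa, H2-Ab1, H2-Eb1 and Cd74 in both strains overlap, with H2-Ab1 at 2.79 in C57BL/6 and 0.98 in Balb/c.

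The irradiation effect was not shown to differ between the strains for any member. The difference of differences, Balb/c minus C57BL/6, was called for 0 of 6 members in limma, against 0.0768% of all genes, and 0 of 6 members reached an unadjusted p under 0.05, a level that 8.06% of genes reached. For H2-Ab1 it was -1.81 ± 0.85 (95% interval -3.69 to 0.07, unadjusted p = 0.0579, adjusted p = 0.627). H2-Ea had the opposite sign, at 1.61 ± 0.75 (unadjusted p = 0.0556, adjusted p = 0.627). That value sets Balb/c against C57BL/6 arrays on which its second probe set was near the bottom of the scale. It does not show an opposite response. H2-Aa was at -0.60 ± 0.69 (95% interval -2.12 to 0.92). Some of the other probe sets of these genes had an unadjusted p under 0.05, though none was called over all probe sets. They were 1443783_x_at of H2-Aa at -2.85 ± 0.88 (unadjusted p = 0.00839), 1425477_x_at of H2-Ab1 at -2.86 ± 0.85 (unadjusted p = 0.00645), 1451721_a_at of H2-Ab1 at -3.07 ± 1.19 (unadjusted p = 0.0263) and 1422892_s_at of H2-Ea at 1.77 ± 0.71 (unadjusted p = 0.0295), with adjusted p from 0.496 to 0.588. The H2-Aa and H2-Ab1 probe sets among these were below or near 5 in Balb/c, and that of H2-Ea was near the bottom of the scale in C57BL/6, so their sizes are rough. The intervals are wide, and a p above the threshold does not show that the strains responded alike.

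The chain genes and Cd74 also varied together within groups. The mean of H2-Aa, H2-Ab1, H2-Eb1 and Cd74 was 9.10, 8.05 and 9.76 in sham C57BL/6 mice and 11.06, 11.50 and 12.38 in irradiated ones. In Balb/c it was 10.30, 8.64 and 9.97 in irradiated mice, and in sham mice it was 8.53 and 8.61 in replicates 1 and 3, with replicate 2 lower. Replicate 2 was the lowest in every group but irradiated C57BL/6. The widest deviation was that of Balb/c sham replicate 2, at -1.05 from its group mean.

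The strains also differed at these genes, in comparisons that share arrays with those above. In sham mice 2 of 6 members were called, where 10.5% of all genes were. H2-Ea was higher in Balb/c by 2.11 ± 0.53 (adjusted p = 0.0274), and H2-DMa lower at -1.40 ± 0.21 (adjusted p = 0.00124). As the mean of its 3 probe sets, of which 1426202_at stayed at 2.23 on all arrays, H2-Ea was higher by 3.55. In irradiated mice 4 of 6 were called, where 8.97% of genes were. H2-Ea was higher in Balb/c by 3.72 ± 0.53, or 13.2-fold (adjusted p = 0.00122). Its probe set 1422892_s_at gave 8.53 ± 0.50 in sham and 10.30 ± 0.50 in irradiated mice, with C57BL/6 near the bottom of the scale. The strain difference of H2-Ea thus has no exact size. H2-Aa was lower at -2.03 ± 0.49 (adjusted p = 0.0252), H2-Ab1 at -2.50 ± 0.60 (adjusted p = 0.0256) and H2-DMa at -1.02 ± 0.21 (adjusted p = 0.0101).

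The strain calls of H2-Aa and H2-Ab1 rested on few arrays. Without Balb/c irradiated replicate 2 the difference in irradiated mice was -1.71 for H2-Aa (adjusted p = 0.1) and -1.99 for H2-Ab1 (adjusted p = 0.0984). Without C57BL/6 irradiated replicates 2 or 3 neither gene was called, with adjusted p up to 0.0916 and 0.0935, and without Balb/c irradiated replicate 3 H2-Ab1 was not called (adjusted p = 0.0575). On 1422891_at, its brightest probe set over the 12 arrays, H2-Ea in sham mice lost its call without sham replicates 1 or 3 of either strain, with adjusted p up to 0.105. The count then went from 2 to 1. Its probe set 1422892_s_at was called in sham mice over all probe sets in limma (adjusted p = 8.92e-07), with C57BL/6 near the bottom of the scale. No array was left out for that probe set. H2-DMa kept both strain calls without each of the 12 arrays in turn. With the 3' minus 5' difference as a covariate, or without both arrays that stand apart, 1 member was called between strains in irradiated mice in place of 4. H2-Ab1 was then at -1.58 without both arrays (adjusted p = 0.221), and H2-DMa at -0.67 with the covariate (adjusted p = 0.211).

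Probe sets of 1 gene read the strains differently. Of 4 probe sets for H2-Aa, 1443783_x_at read 7.33, 6.02 and 9.15 in sham C57BL/6 mice and 3.49, 3.37 and 3.61 in sham Balb/c mice. After irradiation it read 10.62, 10.03 and 11.35 in C57BL/6 and 4.04, 3.34 and 4.06 in Balb/c. It was thus below the filter of 5 on all Balb/c arrays and above it on all C57BL/6 arrays, and its strain difference has no exact size. The probe set 1452431_s_at, above 5 on all arrays, gave Balb/c minus C57BL/6 differences of -0.24 ± 0.84 in sham and -1.15 ± 0.84 in irradiated mice, which were not called. A probe that matches 1 haplotype better than the other and a true difference in transcript level cannot be told apart from these values. The comparison of irradiated with sham mice stays within a strain and so within 1 haplotype.

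In C57BL/6 the other probe sets of H2-Aa and H2-Ab1 were higher after irradiation by at least as much as the brightest ones. For H2-Aa the differences were 2.58 ± 0.77 (1435290_x_at), 3.04 ± 0.84 (1452431_s_at) and 3.17 ± 0.62 (1443783_x_at), the last of which was called over all probe sets (adjusted p = 0.0295). For H2-Ab1 they were 3.29 ± 0.60 (1425477_x_at, adjusted p = 0.0206) and 3.36 ± 0.84 (1451721_a_at, adjusted p = 0.0662). In Balb/c the brighter H2-Aa probe sets gave 1.77 ± 0.77 (1435290_x_at) and 2.13 ± 0.84 (1452431_s_at), neither called. The H2-Ab1 probe sets 1425477_x_at and 1451721_a_at had sham Balb/c means of 4.89 and 4.403, and H2-Aa 1443783_x_at one of 3.49. At these levels a small difference says little about the gene, and theirs were 0.43 ± 0.60, 0.29 ± 0.84 and 0.32 ± 0.62.

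**Figure D3:**
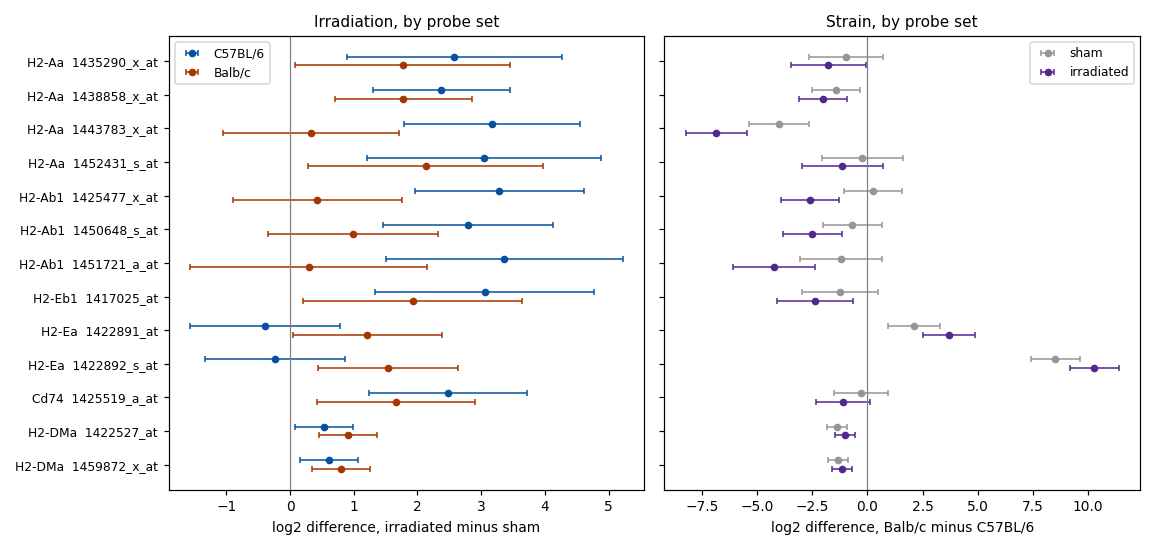
Log2 difference between irradiated and sham mice for every member probe set that passed the filter, by strain, and between Balb/c and C57BL/6 by treatment, with 95% intervals. In C57BL/6 the H2-Aa and H2-Ab1 probe sets lie between 2.38 and 3.36, and in Balb/c they spread from 0.29 to 2.13, the smallest from probe sets below or near 5 there.

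The other editors did not all move with the chains. H2-DMb2, a second beta chain of H2-DM, rose in both strains on its brightest own probe set. Values were 6.79, 6.24 and 6.35 in sham and 7.24, 7.58 and 7.07 in irradiated C57BL/6 mice, and 5.95, 5.70 and 5.78 against 7.12, 6.92 and 6.74 in Balb/c. The arrays separated in both strains, with differences of 0.83 ± 0.18 (adjusted p = 0.0316) and 1.12 ± 0.18 (adjusted p = 0.00639). Its C57BL/6 call was lost without any 1 array of that strain other than sham replicate 1, with adjusted p up to 0.0909. Its other own probe set above the filter, 1443686_at, gave 0.68 ± 0.27 and 0.50 ± 0.27, which were not called. As the mean of its probe sets H2-DMb2 was at 0.50 in C57BL/6 (adjusted p = 0.0678) and 0.60 in Balb/c (adjusted p = 0.0302).

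H2-Ob, the beta chain of the inhibitor H2-O, was lower after irradiation on its own probe set, 1440837_at. It read 10.48, 10.77 and 10.65 in sham and 10.29, 10.25 and 10.09 in irradiated C57BL/6 mice. It read 10.69, 10.94 and 11.03 in sham and 9.81, 10.08 and 10.26 in irradiated Balb/c mice. All irradiated arrays lay below all sham arrays of their strain. H2-Ob fell on average, at -0.63 ± 0.10 (adjusted p = 0.00331), and in Balb/c, at -0.83 ± 0.14 (adjusted p = 0.00931), while C57BL/6 gave -0.42 ± 0.14 (adjusted p = 0.131). H2-Oa, the alpha chain of H2-O, read 7.50 to 7.82 on the C57BL/6 arrays and 3.18 to 5.62 on the Balb/c arrays. It was called lower in Balb/c in sham (adjusted p = 0.000316) and irradiated mice (adjusted p = 0.000103), but 5 of the 6 Balb/c arrays were below the filter of 5, so that difference has no exact size and an irradiation effect in Balb/c could not be judged. In C57BL/6 irradiation gave no call for H2-Oa (adjusted p = 0.798). H2-Eb2 stayed at 2.23 throughout.

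**Figure D4:**
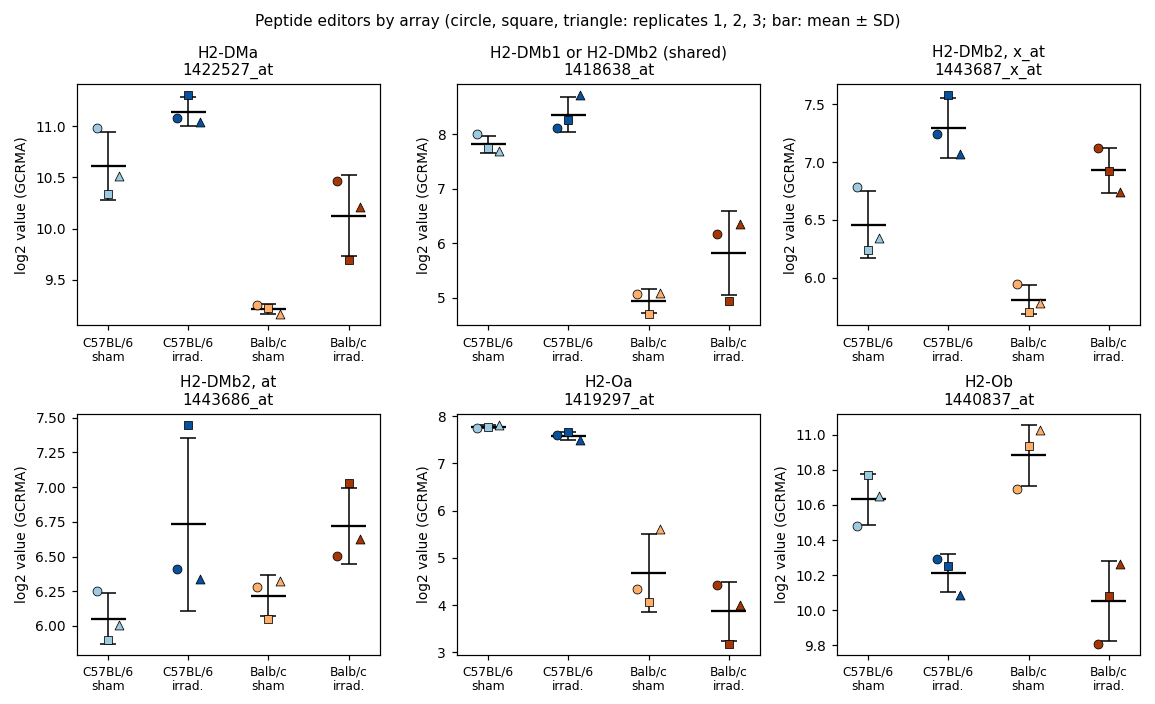
Log2 signal of the peptide editor and inhibitor genes on each of the 12 arrays, by group, with group means and 1 SD (3 mice per group). H2-DMb2 is higher and H2-Ob, on its own probe set, lower on all irradiated arrays than on the sham arrays of the same strain. H2-Oa separates the strains.

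Genes for the factors at class II promoters gave no call for irradiation. Of 9 tested, 0 were called in limma in either strain or on average, and 1 in each strain and 3 on average had an unadjusted p under 0.05. Over all genes 3.67% were called in C57BL/6, 6.15% in Balb/c and 15.9% on average. The counts of this list and of those below are to be set against these shares. The 3 RFX subunits, which bind the X box, had average differences of -0.22 ± 0.15 for Rfx5 (adjusted p = 0.339), -0.22 ± 0.10 for Rfxap (adjusted p = 0.142) and -0.48 ± 0.26 for Rfxank (adjusted p = 0.223). Between strains 1 was called, Nfyb, a subunit of the Y box factor NF-Y, higher in sham Balb/c mice by 0.67 ± 0.15 (adjusted p = 0.0127). Of 10 listed genes of interferon gamma signalling to Ciita, 9 were matched by name and 6 were tested. Irf8, a factor that shapes macrophages and microglia, was the 1 called for irradiation. It fell in Balb/c, at -0.90 ± 0.16 (adjusted p = 0.0102), and on average, at -0.65 ± 0.11 (adjusted p = 0.00475). Irf1, which interferon gamma induces and which acts on the Ciita promoter, had an average difference of -0.21 ± 0.16 (adjusted p = 0.404). Ifng itself read 2.23 to 2.33 on all arrays. Ifngr1, its receptor chain, was lower in Balb/c by -0.59 ± 0.15 in sham (adjusted p = 0.0328) and -0.84 ± 0.15 in irradiated mice (adjusted p = 0.00554). The sham call of Ifngr1 was lost on leaving out any of 5 arrays, most clearly C57BL/6 sham replicate 3 (adjusted p = 0.108). This list covers signalling to Ciita and not the genes that interferons induce. Ifi207 and Ifi47, outside it, were called higher in both strains, as given below.

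Genes for processing and turnover gave 0 of 9 calls for irradiation in limma as well, with 2 at an unadjusted p under 0.05 in C57BL/6, 0 in Balb/c and 0 on average. Ctss, the cathepsin that trims the invariant chain, read 15.54 to 15.73 on the 12 arrays, near the top of the scale. Lgmn, an endosomal protease, read 14.09 to 14.42. Ifi30, a reductase that opens disulfide bonds of antigens, differed by 0.63 ± 0.21 in C57BL/6 (adjusted p = 0.12) and 0.01 ± 0.21 in Balb/c (adjusted p = 0.981). Ctsl, another cathepsin, was lower in irradiated Balb/c than in irradiated C57BL/6 mice, at -0.45 ± 0.12 (adjusted p = 0.0354), a call lost on leaving out any of 6 arrays, most clearly C57BL/6 irradiated replicate 2 (adjusted p = 0.121). As the mean of its probe sets Ctsl was at -2.84. Co-stimulatory ligands, which T cells need beside the class II complex, gave 0 calls in limma among 5 tested of 6, and 0 at an unadjusted p under 0.05. Cd86 differed by 0.01 ± 0.14 in C57BL/6 and -0.14 ± 0.14 in Balb/c, and Cd80 by 0.49 ± 0.34 and 0.19 ± 0.34. Cd40 read 4.85 to 5.87, close to the filter.

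The genes whose pattern lay closest to the mean of H2-Aa, H2-Ab1, H2-Eb1 and Cd74 were found by the root mean square difference of centred values over the 12 arrays, among 9114 other genes. The mean itself had an SD of 1.49 over the arrays, and the median difference over all genes was 1.53. The 8 closest were Plbd1 (0.44), Fxyd5 (0.59), Ifi207 (0.69), Cd72 (0.69), P2ry10 (0.70), Iqgap2 (0.70), Cbr2 (0.72) and Ifi47 (0.73). For comparison the 4 genes in the mean were at 0.27 to 0.42. Plbd1 averaged 6.16 in sham and 9.42 in irradiated C57BL/6 mice, and 5.02 and 7.33 in Balb/c. Cd72, a coreceptor on B cells that some macrophages carry, averaged 3.97 and 7.43, then 4.07 and 5.71. P2ry10 averaged 2.81 and 5.68, then 2.84 and 3.87. It was thus above the filter of 5 on average only in irradiated C57BL/6, where class II was highest, so the filter itself favours its likeness. Ifi207 was called higher in C57BL/6, by 1.67 ± 0.27 (limma, adjusted p = 0.00962), and in Balb/c, by 1.81 ± 0.27 (adjusted p = 0.00442). Ifi47 was called higher by 1.59 ± 0.27 (adjusted p = 0.0127) and 2.01 ± 0.27 (adjusted p = 0.00274). Its C57BL/6 call was lost without C57BL/6 irradiated replicate 3 (adjusted p = 0.0593). These genes were picked for their likeness to class II, so their rise is no separate support. Cbr2 is also in the list of border macrophage markers below.

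Several markers of other cells in the CD11b gate were higher after irradiation, as the class II genes were. Of 12 monocyte markers 9 were matched by name and 8 were tested, with 4 called higher in C57BL/6, 3 in Balb/c and 6 on average. Over all genes 2.21%, 3.26% and 7.72% were called higher in these comparisons. Ccr2, a chemokine receptor of monocytes, differed by 2.52 ± 0.42 in C57BL/6 (adjusted p = 0.0101) and 1.17 ± 0.42 in Balb/c (adjusted p = 0.124). Cd44, an adhesion receptor, rose by 2.38 ± 0.33 and 1.34 ± 0.33 (adjusted p = 0.00484 and 0.04), and its Balb/c call was lost on leaving out any of 9 arrays, most clearly Balb/c sham replicate 2 (adjusted p = 0.127). Without both arrays that stand apart, Ccr2 in C57BL/6 had an adjusted p of 0.0653. As means of their probe sets, Ccr2 was at 0.80 in C57BL/6, and Cd44 at 1.19 in C57BL/6 and 0.56 in Balb/c, still called. The summed level of the monocyte list, as log2 of the sum, was 10.51 to 11.61 in sham and 12.11 to 12.34 in irradiated C57BL/6 mice, and 10.74 to 10.92 against 11.81 to 12.04 in Balb/c, without overlap in either strain. Vcan alone of that list was below 5 on all arrays.

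Border-associated macrophage markers were also higher. Of 12 listed, 10 were matched and 9 tested, with 0 called in C57BL/6 (limma, 8 at an unadjusted p under 0.05), 3 in Balb/c and 7 on average, all higher. The shares of all genes called higher were 2.21%, 3.26% and 7.72%. F13a1 is in this list and in the monocyte list, so its calls in Balb/c (1.17) and on average (1.05) count in both. Folr2, a folate receptor, rose on average by 1.79 ± 0.34 (adjusted p = 0.00723) and Mrc1, the mannose receptor, by 0.83 ± 0.17 (adjusted p = 0.0113). The summed level was 13.29 to 14.44 and 14.32 to 14.64 in C57BL/6, and 12.95 to 13.19 and 13.60 to 13.95 in Balb/c, with Siglec1 below 5 on all arrays. The groups overlapped in C57BL/6, through sham replicate 3, and not in Balb/c. The part of either cell type in the class II result was not tested.

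Many markers of dendritic cells and B cells, and all those matched for T and NK cells, were below 5. Of 12 dendritic cell markers 11 were matched and 5 were tested, and Flt3, Itgax, Xcr1, Ccr7, Kmo and Dpp4 were below 5 on all 12 arrays. Their summed level was 12.73 to 12.92 in sham and 12.39 to 12.68 in irradiated C57BL/6 mice, and 12.68 to 12.87 against 12.27 to 12.62 in Balb/c. That sum is almost all Siglech, which is also in the microglial list and averaged 12.69 in sham and 12.31 in irradiated C57BL/6 mice. The median difference of the 5 tested markers was 0.15 in each strain. Cd209a, a lectin, differed by 1.59 ± 0.52 in C57BL/6 (adjusted p = 0.119) and 0.15 ± 0.52 in Balb/c (adjusted p = 0.896). It averaged 4.35 in sham and 5.94 in irradiated C57BL/6 mice, and 4.17 and 4.32 in Balb/c. Only irradiated C57BL/6 averaged above the filter of 5, so these sizes are rough and a change in Balb/c could not be judged. Batf3, a transcription factor of conventional dendritic cells, fell by 0.83 and 1.23 on the log2 scale in C57BL/6 and Balb/c (adjusted p = 0.00826 and 0.00107) and was the 1 called in each strain.

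Of 10 B cell markers 9 were matched and 5 tested, with Cd79a, Ms4a1, Pax5 and Fcrla below 5 on all arrays and summed levels of 12.26 to 12.72, 11.99 to 12.26, 12.18 to 12.46 and 11.82 to 12.07 in the 4 groups in the order given at the start. Bank1, a signalling scaffold of B cells, rose by 0.43 ± 0.10 in C57BL/6 (adjusted p = 0.0418) and 0.61 ± 0.10 in Balb/c (adjusted p = 0.00678). Blnk, an adaptor of the B cell receptor, fell in Balb/c, at -0.61 ± 0.15 (adjusted p = 0.0394), and on average, as did Cd79b on average, at -0.54 ± 0.16 (adjusted p = 0.0463). The C57BL/6 call of Bank1 was lost on leaving out any of the 12 arrays (adjusted p at most 0.103), the Balb/c call of Blnk on leaving out any of 7 (at most 0.138) and that of Cd79b on any of 9 (at most 0.104). All 10 T and NK cell markers matched were below 5 on all arrays. Of 13 microglial identity genes tested, 0 were called in C57BL/6 (limma, 1 at an unadjusted p under 0.05). Trem2, a lipid-sensing receptor, was the 1 called in Balb/c, lower at -1.02 ± 0.20 (adjusted p = 0.016, 0.0673 without Balb/c sham replicate 2, and 0.155 with the 3' minus 5' covariate). On average 2 were called, both lower, Trem2 at -0.71 ± 0.14 (adjusted p = 0.00889) and Siglech at -0.38 ± 0.09 (adjusted p = 0.0184). These counts are near the shares of all genes called, 3.67% in C57BL/6, 6.15% in Balb/c and 15.9% on average. The summed level of that list was 17.44 to 17.60 over all 12 arrays.

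**Figure D5:**
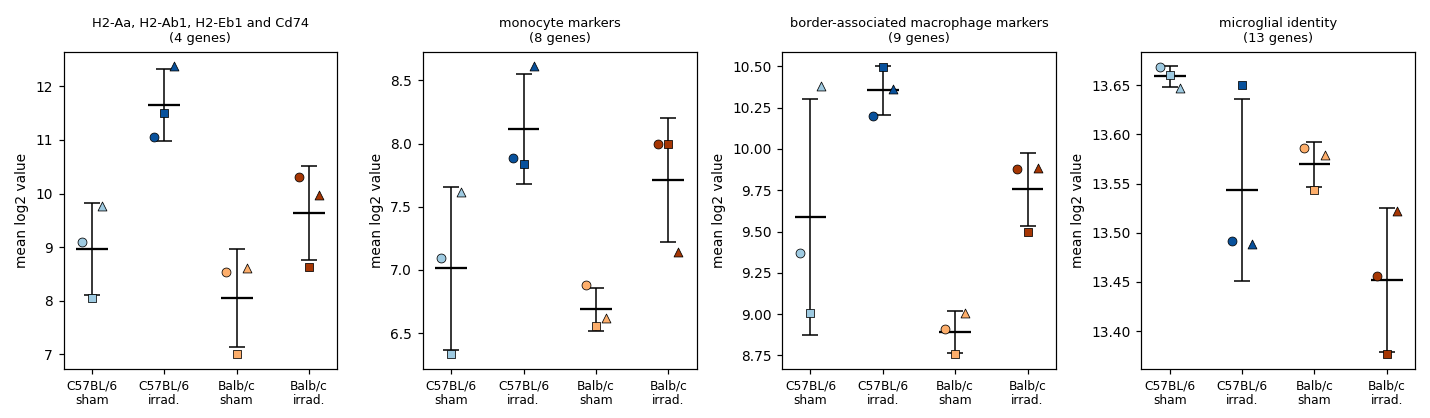
Mean log2 signal of the class II chain genes with Cd74 and of the marker lists for monocytes, border-associated macrophages and microglia on each of the 12 arrays, by group, with group means and 1 SD; circles, squares and triangles are replicates 1, 2 and 3, and each panel has its own axis. The microglial list lies between 13.38 and 13.67, the monocyte list is higher on all irradiated arrays than on the sham arrays of its strain, and the border macrophage list overlaps in C57BL/6.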

How the data were processed

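Signals came from 12 Affymetrix arrays of CD11b+ hippocampal cells, 3 mice per group, grouped by the labels' titles. The authors deposited log2 values, and the submitters' processing notes name GCRMA for them; the sorted values of all arrays are the same, and the median lies near the bottom of the scale, so differences of dim probe sets are compressed. Probe sets were named by the platform annotation, and those naming several genes were left out of gene-level tests. Here limma 3.58.1 in R 4.3.3 fitted 1 mean per group (lmFit, eBayes, 8 residual degrees of freedom) over 9120 genes above 5 on at least 3 arrays. Precision is limited by the 3 arrays in a group. The script was tested on simulated data. Alternatives were other filters, probe set rules, centring, floors, weights, a replicate block, a covariate, thresholds and left-out arrays. Named genes were all members, list genes that were called (up to 4 per list and comparison) or bear on class II whatever they showed, up to 3 markers per list by smallest p with the markers below 5, and the 8 genes closest in pattern. The members and lists were chosen with earlier results of these data known.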

Additional observations from a re-analysis of the deposited data

How the results depend on the processing

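Each count of called members was recomputed under alternatives, 160 in all, and 120 stayed within 1.5 times the reported count. The 120 include all 26 for the difference between strains in response, where the count was 0 throughout. The count moved further in 16 of 27 alternatives in Balb/c and in 9 of 27 in C57BL/6. In C57BL/6 the count of 3 was 0 without the filter, at an adjusted p under 0.01, with the compared groups alone and without both arrays that stand apart, and ran from 0 to 4 leaving out 1 array. In Balb/c the count of 1 was 0 without the filter, at an adjusted p under 0.01, with a 2-fold minimum and with the compared groups alone. It was 2 with the filter at 7, with array weights, at an adjusted p under 0.1 and without both arrays, and ran from 0 to 2 leaving out 1 array. On average the count of 5 was 3 without the filter and at an adjusted p under 0.01, and stayed 5 leaving out any array. Between sham strains the count of 2 was 1 without the filter and at an adjusted p under 0.01, 3 at an adjusted p under 0.1, and 1 to 3 leaving out 1 array. Between irradiated strains the count of 4 was 2 without the filter, 1 with the 3' minus 5' covariate, at an adjusted p under 0.01 and without both arrays, and 2 to 5 leaving out 1 array. The count for the difference between strains in response was 0 throughout. More genes tested without the filter raise the adjusted p; the other causes were not tested. The only reversals among member values were 2 of Cd74, neither called. Its difference in response became 0.11 without both arrays, and its sham strain difference ran from -0.56 to 0.22 leaving out 1 array, with 0.22 without Balb/c sham replicate 2. Over all genes the counts ran from 81 to 725 in C57BL/6 (reported 335), 104 to 1076 in Balb/c (561), 312 to 2144 on average (1447), 2 to 11 for the difference in response (7), 472 to 1609 between sham strains (954) and 336 to 1456 between irradiated strains (818). Signal over background limits Ciita and the other genes near 2.23.

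The labels number the replicates 1 to 3 in each group but do not say that a number marks a shared litter or day. Deviations of same-numbered arrays from their group means correlated at -0.05 to 0.45 over 18 pairs, 9 of them above 0.1, and 8 of 12 arrays correlated best with their own number, a hint from the data and not the design. With the replicate block the counts of called members were 4 in C57BL/6, 3 in Balb/c, 5 on average, 3 between sham strains and 5 between irradiated strains.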
